A study of Mus musculus with 267 samples.

Results

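In bone marrow-derived macrophages (BMDMs) of C57BL/6J mice, 9358 of the 39537 STAT6 peaks listed after 24 h of interleukin-4 (IL-4) shared no base with any STAT6 peak listed before treatment, at 1 h or at 6 h. These late sites, 23.7% of the 24 h list, are described here. They were chosen by the peak lists themselves, so their absence from the earlier lists is a description and not a result. Of the other 24 h peaks, 6924 overlapped a 1 h or 6 h peak but no basal peak (early sites), and 23255 overlapped a peak present before IL-4 (basal sites). Both sets serve only as comparison.

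The study followed how macrophages of 5 inbred mouse strains respond to IL-4. BMDMs were grown from marrow with M-CSF and were left untreated (basal) or given 20 ng/mL mouse IL-4 for 1, 6 or 24 h. The strains used below were C57BL/6J (C57), SPRET/EiJ (SPRET), PWK/PhJ (PWK), BALB/cJ (BALB) and NOD/ShiLtJ (NOD), the last 4 at basal and 24 h only. A further pair of genotypes at basal and 24 h was Egr2 fl/fl, which carries loxP-flanked Egr2 alleles without Cre, and LyzM-Cre Egr2 fl/fl, in which Cre driven by the myeloid LyzM promoter removes Egr2. All mice were females aged 8 to 12 weeks, per the methods of the study. Chromatin immunoprecipitation sequencing (ChIP-seq) of STAT6, EGR2, PPARγ, C/EBPβ, PU.1, RNA polymerase II (Pol II) and the histone marks H3K27ac, H3K4me2 and H3K4me3 had 2 libraries a group for nearly all groups. Pol II in C57 had 4 basal libraries, 1 at 1 h, 2 at 6 h and 3 at 24 h. Libraries of the tables used below held 5728050 to 29050468 tags. The labels number the libraries of a group as replicates, and p-values measure the spread between those libraries.

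IL-4 binds its receptor on macrophages and activates Janus kinases, which phosphorylate STAT6. Phosphorylated STAT6 forms dimers that enter the nucleus and bind palindromes of TTC and GAA, and many of the first induced genes encode further transcription factors, EGR2 among them. EGR2 is a zinc-finger activator that binds GC-rich elements. PU.1 and C/EBPβ are lineage factors that keep macrophage enhancers accessible, and PPARγ is a lipid-sensing nuclear receptor induced in alternatively activated macrophages. H3K27ac marks active enhancers and promoters, H3K4me2 marks both, and H3K4me3 marks promoters.

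The late sites were weak peaks. Their deposited peak count, a value over the pooled replicates, ran from 17 to 421 with a median of 24, against 37 at early sites and 43 at basal sites. The deposited score stood at its maximum of 1000 in 26.1% of late sites, in 66.9% of early sites and in 75% of basal sites. The lists also differed in reach. The lowest count of any peak was 61 in the 1 h list and 49 in the 6 h list, against 16 in the basal list and 17 in the 24 h list, so a weak 1 h or 6 h peak would not have been listed. The part this difference plays in membership was not tested. Without the 6 h list 10857 peaks would have qualified, and against the basal list alone 16282 would have. At the edge of the rule, 52 late sites lay under 50 bp from an earlier peak, and 49 other 24 h peaks were kept out by an overlap of under 50 bp. In all, 949 late sites (10.1%) lay within 500 bp of an earlier peak, and 5938 (63.5%) within 10 kb.

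Late sites lay mostly away from promoters. Introns held 49.9% of them, intergenic sequence 33.1%, and 13.2% lay within 1 kb of a gene start. Over all 24 h STAT6 peaks these shares were similar, at 48.9%, 33% and 14.7%. The median distance to the nearest start of a protein-coding gene was 18524.5 bp, and 5347 genes were the nearest to at least 1 late site. Counting each site for its nearest gene, within 50 kb of the start, Sfi1 had 21 late sites, the lipoprotein lipase gene Lpl 12, and Mmp12, which encodes macrophage elastase, and Dhrs3, a retinal reductase gene, 10 each. Repeat-masked bases filled over 50% of the 200 bp at the centre of 9.21% of late sites, against 4.84% of early and 5.54% of basal sites, and their part in membership was not tested. H3K27ac at a late site of Sfi1, given further on, was also low at 1 h and 6 h.

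The sequences under 8 late sites are printed first, since the results below turn on which letters they hold. The first 6 were the leading sites of the rules described with the processing: the largest H3K27ac rise (Chic2) and fall (Pilra), the highest score with 4 other factors bound (Mpp6), the site nearest the alternative activation gene Arg1, and the largest STAT6 rise with IL-4 (Plxnc1) and fall without Egr2 (Nt5dc3) in the Egr2 genotypes. The leading site by score lay in mitochondrial mt-Cytb and is not shown. Lrrc32 and Ccl17 were added after their values were seen, because they hold a STAT match. Each line gives 200 bp around the peak centre, plus strand, mm10. Capitals mark matches on either strand to STAT motifs with 4 or 3 bases between TTC and GAA (TTCNNNNGAA or TTCNNNGAA), EGR (GTGGGNG), KLF (GGGNGTGG), PU.1 (GAGGAAGT), C/EBP (TTGCNNAA) and AP-1 (TGANTCA).
Chic2 (chr5:74949397-74949596): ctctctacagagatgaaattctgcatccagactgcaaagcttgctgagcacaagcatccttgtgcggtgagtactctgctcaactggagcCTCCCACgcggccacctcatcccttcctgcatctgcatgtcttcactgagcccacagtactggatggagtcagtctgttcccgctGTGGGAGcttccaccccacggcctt
Pilra (chr5:137831649-137831848): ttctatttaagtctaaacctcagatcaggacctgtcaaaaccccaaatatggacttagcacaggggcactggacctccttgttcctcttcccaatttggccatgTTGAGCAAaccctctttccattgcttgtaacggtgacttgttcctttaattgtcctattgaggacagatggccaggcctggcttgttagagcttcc
Mpp6 (chr6:50060003-50060202): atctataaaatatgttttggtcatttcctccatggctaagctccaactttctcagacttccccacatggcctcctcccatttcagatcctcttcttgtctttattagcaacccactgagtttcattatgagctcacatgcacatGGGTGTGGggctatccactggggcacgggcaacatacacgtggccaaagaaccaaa
Arg1 (chr10:24901995-24902194): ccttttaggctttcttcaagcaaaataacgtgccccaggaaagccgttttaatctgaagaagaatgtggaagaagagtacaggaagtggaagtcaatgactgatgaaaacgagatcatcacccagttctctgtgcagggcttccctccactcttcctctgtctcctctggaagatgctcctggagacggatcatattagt
Plxnc1 (chr10:94989778-94989977): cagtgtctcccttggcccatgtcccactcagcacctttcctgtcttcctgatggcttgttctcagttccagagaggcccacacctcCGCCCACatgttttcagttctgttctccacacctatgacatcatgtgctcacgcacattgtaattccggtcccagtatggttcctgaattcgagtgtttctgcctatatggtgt
Nt5dc3 (chr10:86830256-86830455): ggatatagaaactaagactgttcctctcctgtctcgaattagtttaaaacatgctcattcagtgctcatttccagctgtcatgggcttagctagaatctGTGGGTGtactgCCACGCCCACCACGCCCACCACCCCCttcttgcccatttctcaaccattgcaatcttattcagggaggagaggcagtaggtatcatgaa
Lrrc32 (chr7:98484858-98485057): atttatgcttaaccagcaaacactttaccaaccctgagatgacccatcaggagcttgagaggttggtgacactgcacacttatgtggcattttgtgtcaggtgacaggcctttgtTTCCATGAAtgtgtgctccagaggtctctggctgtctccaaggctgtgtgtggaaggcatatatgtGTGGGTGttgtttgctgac
Ccl17 (chr8:94810157-94810356): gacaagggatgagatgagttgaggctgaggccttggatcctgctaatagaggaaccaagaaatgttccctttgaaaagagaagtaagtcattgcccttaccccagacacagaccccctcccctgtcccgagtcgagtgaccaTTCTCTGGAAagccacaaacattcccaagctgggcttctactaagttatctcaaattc

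Chic2, Plxnc1, Nt5dc3 and Lrrc32 hold EGR matches, which Nt5dc3 repeats in a C-rich run that also matches KLF. Plxnc1 and Nt5dc3 came from sites chosen by the study as IL-4-induced EGR2 peaks, and Chic2 and Lrrc32 carried a 24 h EGR2 peak. Their EGR matches therefore do not stand for late sites in general. Only Ccl17 and Lrrc32 of these 8 hold a STAT match, and the Arg1 site holds none of the motifs. The Pilra site holds a C/EBP match and the Mpp6 site a KLF match. EGR and KLF letters can overlap, as they do at Nt5dc3.

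Over all late sites the STAT motif was less common, and the EGR motif more common, than at early sites. A STAT match with 4 spaced bases stood in 9.24% of late sites (exact binomial 95% interval 8.66 to 9.85), in 30.8% of early sites and in 8.05% of basal sites. All 77955 open regions of the C57 time-course table, taken as windows of the same length, held it in 6.04%. The match with 3 spaced bases stood in 7.52% of late sites, in 15.3% of early sites and in 5.63% of open regions. EGR matches ran the other way. They stood in 30.7% of late sites (29.7 to 31.6), in 24.3% of early sites, in 19.8% of basal sites and in 21% of open regions.

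This order between late and early sites was also seen at matched peak counts. In the 4 quartiles of all 24 h peaks by count, from the weakest to the strongest, EGR matches stood in 26.9%, 32.6%, 41.5% and 46.8% of late sites, against 15.9%, 22%, 26.4% and 31.1% of early sites. STAT matches with 4 spaced bases stood in 7.97%, 9.59%, 13.2% and 17.9% of late sites, against 24.4%, 22.2%, 29.1% and 48.5% of early sites and 3.51%, 4.06%, 5.35% and 14.7% of basal sites. At matched counts late sites thus stood between early and basal sites for this motif. The quartiles held 5284, 2814, 1087 and 173 late sites.

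C/EBP matches were less common at late sites than in each comparison set. They stood in 11% of late sites, 20.1% of early sites, 15.4% of basal sites and 12% of open regions. At late sites, early sites and open regions, PU.1 matches stood in 10.3%, 8.45% and 8.38%, AP-1 matches in 21.2%, 23.9% and 16.8%, and KLF matches in 10.8%, 8.61% and 9.8%. The direct repeat of AGGTCA spaced by 1 base (DR1), the classical PPARγ element, stood in 0.0321% of late sites and 0.0359% of open regions as exact letters.

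**Figure D1:**
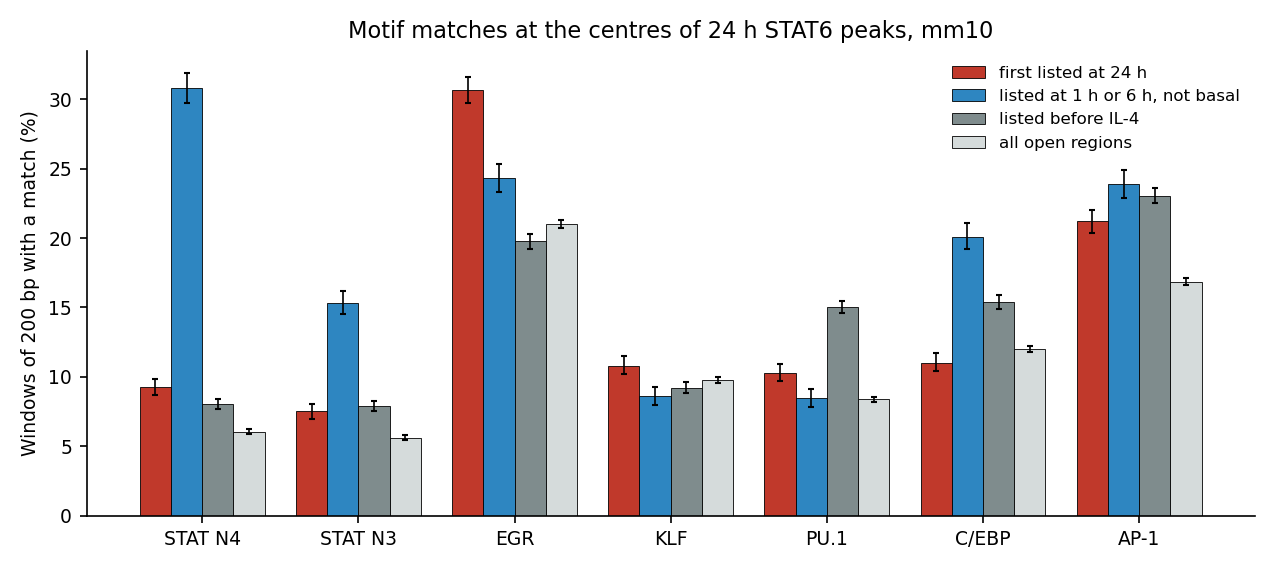
Share of 200 bp windows with a match to each motif, in percent, at late sites (red), early sites (blue), basal sites (grey) and all open regions (light grey); bars carry exact binomial 95% intervals. Late sites stand highest for EGR (30.7%) and far under early sites for STAT N4 (9.24% against 30.8%).

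Without regard to peak strength, other factors overlapped late sites less often than the other 24 h STAT6 peaks. At 24 h, a PU.1 peak overlapped 69.1% of late sites (68.1 to 70.0), 74.8% of early sites and 92.0% of basal sites. PPARγ overlapped 32.5% of late sites, 41.8% of early sites and 59.5% of basal sites. EGR2 overlapped 31% (30.1 to 31.9), 43.7% and 46.3%, and C/EBPβ 29.9% (29 to 30.9), 55.5% and 57.9%. All 4 factors overlapped 3.43% of late sites, against 13.7% of early and 21.6% of basal sites, and none of the 4 overlapped 1175 late sites (12.6%). PU.1 was the only 1 of the 4 at 2258 late sites (24.1%).

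The order against early sites depended on peak strength and on the factor. From the weakest to the strongest quartile, EGR2 overlapped 25.3%, 34.8%, 46.2% and 49.1% of late sites, against 30.6%, 37.8%, 46.1% and 58.4% of early sites. For C/EBPβ the gap remained in each quartile, with 26.5%, 32.2%, 39.7% and 38.2% of late sites against 49.5%, 53.5%, 56.2% and 62.1% of early sites. PPARγ overlapped late sites no less often than early sites in all but the strongest quartile, with 25.4%, 38.6%, 49.3% and 43.9% against 23.3%, 36.9%, 43.8% and 60.4%. PU.1 was near equal in the same 3 quartiles, with 66%, 73%, 75.1% and 61.3% of late sites against 65.2%, 73.4%, 77.3% and 81.4% of early sites.

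Before IL-4, 64.5% of late sites already carried a peak of at least 1 of the 4 factors, against 70.3% of early sites and 95.9% of basal sites. Basal PU.1 accounted for most of these. It overlapped 56.2% of late sites and 55.4% of early sites. Basal C/EBPβ overlapped 9.57%, basal EGR2 8.42% and basal PPARγ 4.46% of late sites. EGR2 peaks overlapped 13% of late sites at 1 h and 14.6% at 6 h, and thus 31% by 24 h, when STAT6 was first listed there. Peaks present at 24 h and absent at basal stood at 28.4% of late sites for PPARγ, 22.9% for EGR2, 20.6% for C/EBPβ and 16.4% for PU.1. At early sites these shares were 37.6%, 30.1%, 30.2% and 21.8%. An open region centred within 500 bp was listed for 62.1% of late sites. It was an ATAC-seq peak before IL-4 at 46.8%, and only after IL-4 at 15.3% of late sites and 21.3% of early sites.

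**Figure D2:**
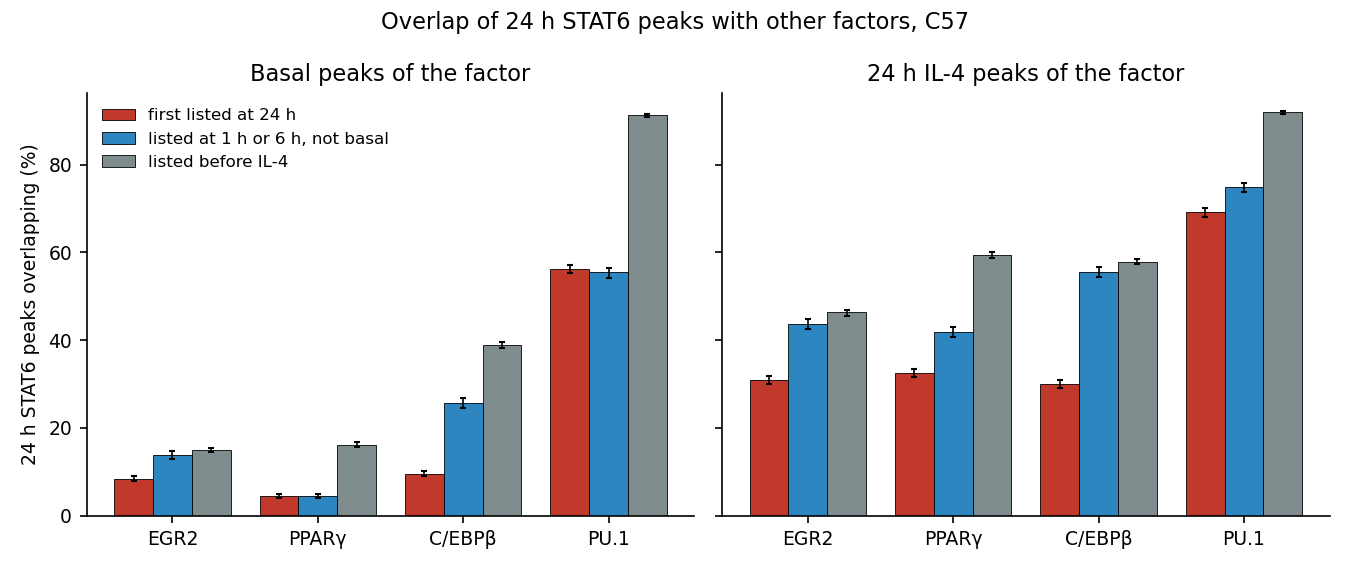
Share of 24 h STAT6 peaks, in percent, that overlapped a basal (left) or 24 h (right) peak of each factor in C57, with exact binomial 95% intervals, for late (red), early (blue) and basal (grey) sites. PU.1 was already present at 56.2% of late sites. EGR2 went from 8.42% to 31% at late sites and from 13.8% to 43.7% at early sites.

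Motifs and binding went together within the late sites. An EGR match stood in 56.9% (55.1 to 58.7) of the 2900 late sites with a 24 h EGR2 peak and in 18.9% of those without. Among EGR2-bound early and basal sites the share was 44.5% and 32.9%. A C/EBP match stood in 24.3% of late sites with C/EBPβ and in 5.35% of those without, and a PU.1 match in 13.4% and 3.42%. The STAT match with 4 spaced bases was less common where EGR2 was bound (6.24%) than where it was not (10.6%), and stood in 18.1% of the late sites with none of the 4 factors.

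STAT6 lists of the 4 other strains, which the choice of sites did not use, held some of the late sites. At 24 h PWK held 39.2% of them, SPRET 28.9%, NOD 14.2% and BALB 8.42%. Early sites were held more often in each strain, at 70.9%, 56.4%, 49.7% and 35.6%. The basal lists of PWK, SPRET, NOD and BALB held 5.26%, 16.6%, 8.6% and 2.74% of late sites. No other strain held 4060 late sites (43.4%), and all 4 held 153 (1.63%), against 19.4% of early sites. PWK held 28.2%, 48.3%, 64.2% and 68.2% of the late sites in the 4 quartiles by count. The EGR match stood in 27.2% of late sites found in no other strain and in 39.9% of those found in all 4. STAT matches with 4 spaced bases stood in 7.83% and 13.7%, PU.1 in 8.99% and 17%, and KLF in 10.1% and 13.7%. C/EBP matches stood in 9.95% and 11.8%, and AP-1 matches fell from 21% to 15%. These motif shares were not matched for peak count. The lists differ in depth and sequence between strains, and the part of either in these shares was not tested.

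H3K27ac was read from 1000 bp regions of the time-course table, in tags per 10000000 library tags. These are pooled cells, in which a mark in more cells and more of it per cell cannot be told apart. A region centred within 500 bp was found for 5798 late sites. limma on log2(tags + 1), with Benjamini-Hochberg adjustment over all 77955 regions, called H3K27ac higher at 24 h than at basal at 149 late regions (2.57%) and lower at 8 (0.138%). Over all regions it called 1.13% higher and 0.327% lower. Early regions were called higher in 7.23%. The median log2 change was 0.01 at late regions, 0.40 at early regions, -0.68 at basal regions and -0.22 over all regions. The late regions thus stood above the table's own shift and under the early regions. Without replicate 2 of 24 h the 149 and 8 calls became 37 in all, and DESeq2 gave 438.

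By the fold rule (at least 2.5-fold between group means with 1 added, at least 16 tags in 1 group, and replicates that did not overlap), 503 late regions (8.68%) were higher and 190 (3.28%) lower at 24 h. The whole table gave 3.55% and 6.69%. At 32.8% of late regions no H3K27ac group reached 16 tags, against 19.3% of early and 10.9% of basal regions.

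At all 8 of the largest 24 h rises of H3K27ac, described further on, both 6 h libraries already lay above both basal libraries. These 8 were chosen by their fold over the same basal libraries, so this describes them and not late regions at large. limma called 194 higher and 102 lower at 6 h against basal (3.35% and 1.76%), with 2.67% and 2.46% of all regions. The medians were -0.05 at late, 0.59 at early and -0.14 at all regions. Without either 6 h library the calls fell to 24 in all, without replicate 2 of 6 h with 10 higher and 14 lower, and without replicate 2 of basal to 119. At 1 h, 51 were higher and 390 lower (0.88% and 6.73%), with 1.37% and 8.36% of all regions and medians of -0.68 and -0.63, but median-ratio scaling turned the 1 h direction, with 102 higher and 40 lower, and so did DESeq2. Without replicate 1 of 1 h there were 1431 calls, and without replicate 1 and 2 of basal 212 and 28. Between 6 h and 24 h limma called 16 late regions higher (0.276%) and 0 lower, with 0.0731% and 0.0% of all regions, and 4 in all without replicate 1 of 6 h. The median change from 6 to 24 h was 0.06 at late and -0.24 at early regions.

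**Figure D3:**
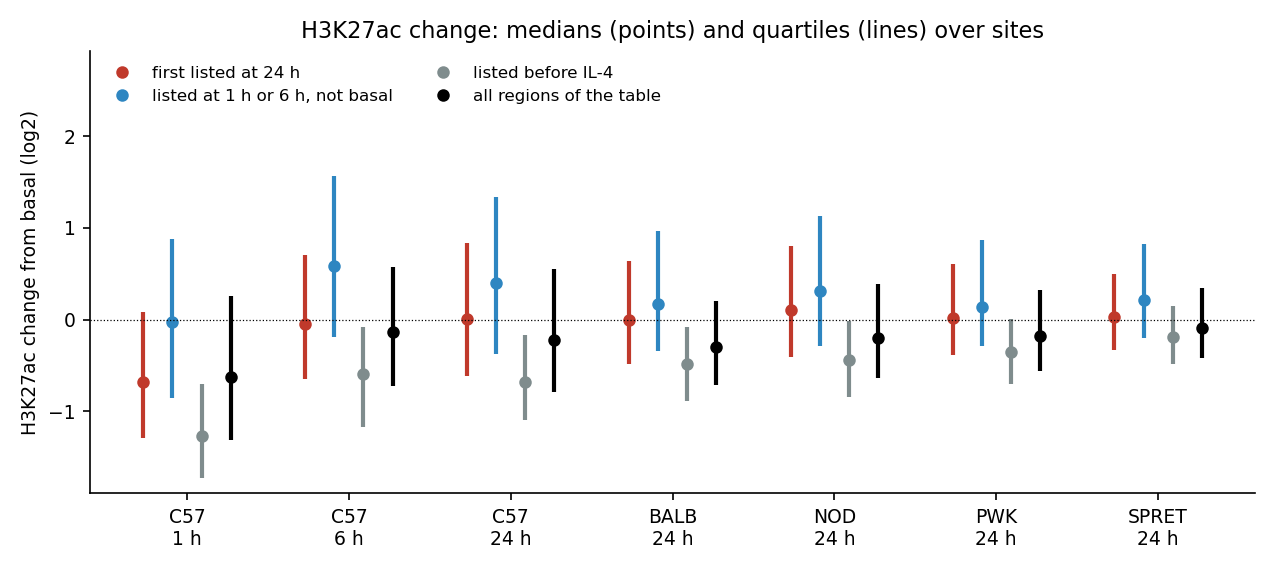
log2 change of H3K27ac from basal, as the median (point) and quartiles (line) over sites, for late (red), early (blue) and basal (grey) sites and for all regions (black), in C57 at 1, 6 and 24 h and in 4 strains at 24 h. At 24 h in C57 the medians were 0.01, 0.40, -0.68 and -0.22.

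Late regions differed among themselves. By the fold rule H3K27ac was higher in 4.29%, 10.3%, 17.3% and 42.4% of late regions from the weakest to the strongest quartile of STAT6 count, with medians of -0.13, 0.05, 0.50 and 1.43. It was higher in 12.6% of late regions with a 24 h EGR2 peak (median 0.21) and in 5.99% of those without (median -0.09). Late regions that gained PU.1 by 24 h had a median of 0.85 with 20.6% higher, against -0.11 and 6.52% for the rest. Those with none of the 4 factors at basal had a median of 0.63 with 16.4% higher, against -0.18 and 5.42%. Promoter late sites had a median of -0.55, intronic ones 0.22 and intergenic ones 0.24. These splits share STAT6 strength and were given no test.

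The largest H3K27ac rise by fold was 95278 bp downstream of the start of Chic2, chr5:74949320-74949672, in an intron of the noncoding RNA Gm6116. An earlier STAT6 peak lay 450 bp from this site, and the region was listed as open at 1 h only. H3K27ac tags of the 1000 bp region were not split between the late site and that peak. The 2 basal libraries held 1.36 and 2.85 tags, the 1 h libraries 64.9 and 18.2, the 6 h libraries 97.8 and 161, and the 24 h libraries 72.2 and 119. All treated libraries lay above both basal libraries, and the 24 h and 6 h libraries overlapped. The log2 change at 24 h was 4.96 ± 0.64 (SE, limma, adjusted p = 0.0008250). Pol II tags in the same region were 0.62, 0.80, 0.54 and 0 at basal and 14.7, 26.4 and 23.1 at 24 h, a log2 change of 3.90 with a limma adjusted p of 0.0004012.

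At Lrrc32, whose product GARP presents latent TGF-β, the late site lay 4740 bp upstream of the start, at chr7:98484833-98485081. H3K27ac tags were 0.68 and 0 at basal, 1.55 and 8.95 at 1 h, 18.5 and 23.1 at 6 h, and 35.6 and 37.4 at 24 h. They were highest at 24 h in both libraries. The log2 change was 4.86 ± 0.68 (limma adjusted p = 0.001276), and EGR2 tags at the site were 11.7 and 2.69 at basal and 62.4 and 27.8 at 24 h.

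Pfkp encodes the platelet-type phosphofructokinase of glycolysis. Its site lay 3963 bp upstream, at chr13:6652629-6652851, with 1.36 and 0 H3K27ac tags at basal, 5.41 and 5.85 at 1 h, 12.3 and 18.3 at 6 h, and 33.95 and 40.7 at 24 h. The log2 change at 24 h was 4.64 (limma adjusted p = 0.001068), and no library overlapped one of another time. Pcnx4 (chr12:72572512-72572725) held 0 and 2.14 tags at basal, 9.24 and 15.2 at 6 h, and 27.2 and 72.8 at 24 h, a change of 4.69 (limma adjusted p = 0.001823). Slc45a1, which encodes a sugar transporter, had a site 90765 bp upstream with 2.71 and 4.28 tags at basal, 28.5 and 37.7 at 6 h, and 73.8 and 106.3 at 24 h, a change of 4.34 (limma adjusted p = 0.0008250).

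The other 3 of the 8 largest rises were at Parp6 (log2 change 4.54, limma adjusted p = 0.001204), Mcf2l (4.42, 0.001068) and Dab2ip (4.25, 0.009318). Of the 8, 6 carried a 24 h EGR2 peak, 6 a PPARγ peak and 4 a PU.1 peak, and Dab2ip alone carried any of the 4 factors at basal. Of all 5798 late regions, 2343 carried a 24 h EGR2 peak, 2198 a PPARγ peak and 4094 a PU.1 peak. Any of the 4 factors at basal was carried by 4075 of them. The 8 are extremes, and their factors were given no test.

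Falls were fewer. At Pilra, the gene of an inhibitory myeloid receptor, the intronic site at chr5:137831624-137831873 held 78.0 and 106 H3K27ac tags at basal, 30.9 and 17.6 at 1 h, 42.4 and 9.13 at 6 h, and 5.94 and 16.4 at 24 h. Every treated library lay under both basal libraries. The log2 change was -3.07 (limma adjusted p = 0.03064). Pol II fell with it by -2.86 (limma adjusted p = 0.04287), from 34.3, 20.1, 30.6 and 27.3 tags to 2.67, 0.91 and 7.70. Krt80 (-2.74, limma adjusted p = 0.01973) also passed the test, and Clmn (-2.61, limma adjusted p = 0.1173) did not. The sites at Pilra, Krt80 and Clmn each carried a 24 h peak of C/EBPβ, and those at Pilra and Krt80 had it at basal.

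**Figure D4:**
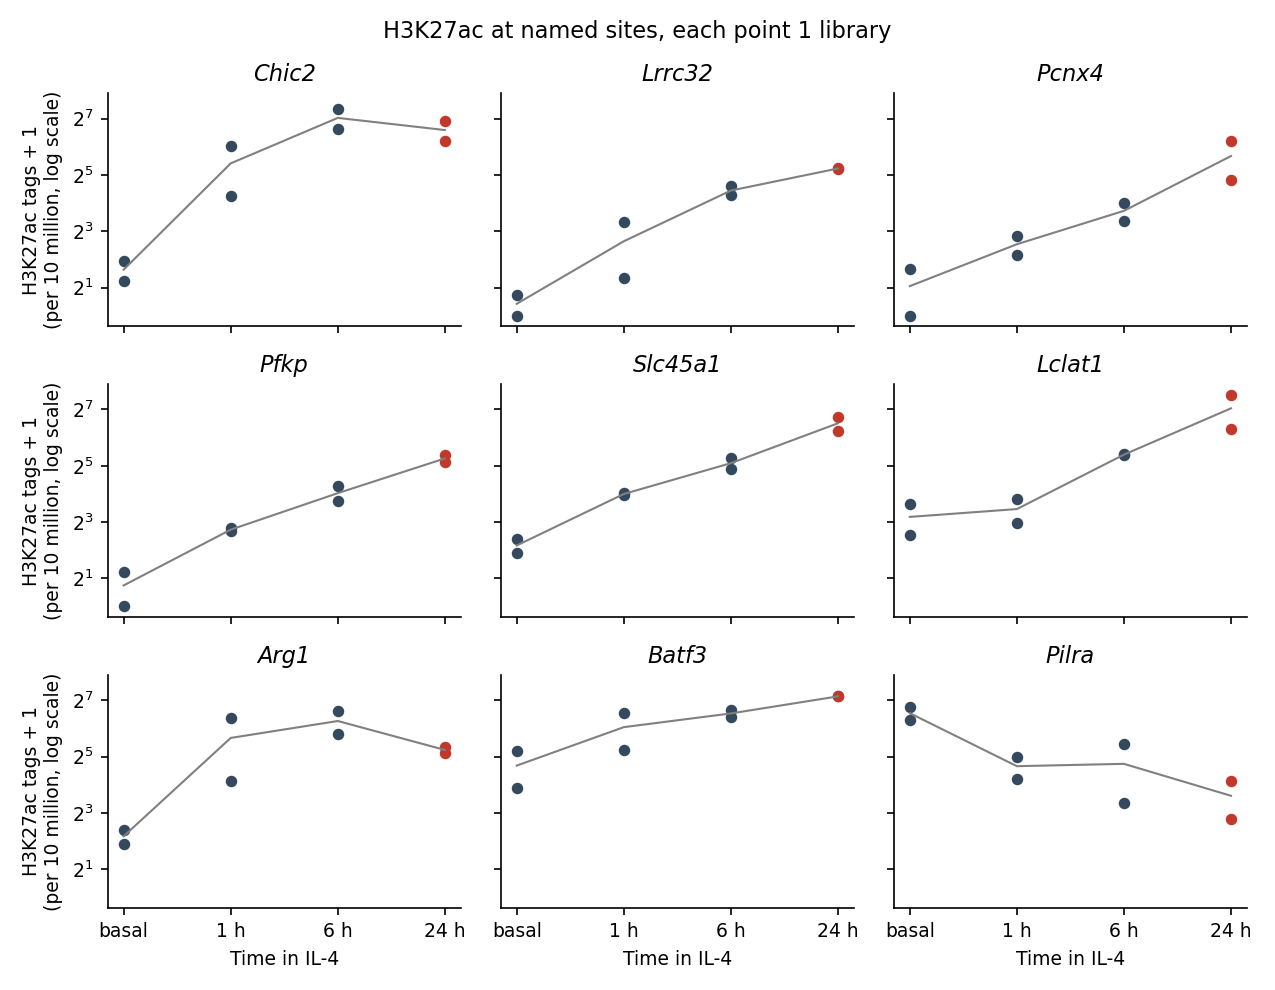
H3K27ac tags plus 1, per 10000000 library tags, on a log scale at named late sites, in each library (points) with group means (line), against time in IL-4; 24 h is red. Lrrc32, Pcnx4, Pfkp, Slc45a1 and Lclat1 were highest at 24 h, Chic2 and Arg1 had higher means at 6 h than at 24 h, and Pilra fell.

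The 8 late sites of highest score were a mixed set. Those in mt-Cytb and mt-Co1 lay on the mitochondrial genome, where the 1 h and 6 h lists held no peak. A site at chr19:5840865-5841242 lay in the noncoding RNA Neat1, a site at chr17:39843071-39843362 in the noncoding RNA Gm26917, and one 1379 bp upstream of Tspoap1 ended 15 bp from an earlier peak. The Sfi1 site held 363 and 318 H3K27ac tags at basal, 1.55 and 17.2 at 1 h, 4.62 and 46.3 at 6 h, and 412.5 and 261.9 at 24 h. Both intermediate times lay far under basal and 24 h there. The Sfi1 region was thus low in H3K27ac at the same 2 times at which STAT6 was not listed there, and the cause was not tested.

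The other 2 were Ucp2, whose site lay in a UTR of Dnajb13, and Lclat1, which encodes a lysophospholipid acyltransferase. The Lclat1 site lay 70962 bp upstream, at chr17:73036911-73037154, carried PPARγ and PU.1 at 24 h and none of the 4 factors at basal, and was listed at 24 h in all 4 other strains. Its H3K27ac tags were 4.75 and 11.4 at basal, 13.1 and 6.88 at 1 h, 40.8 and 41.4 at 6 h, and 78.9 and 182.5 at 24 h. Tags were highest at 24 h, and the 1 h libraries overlapped basal. The log2 change was 3.84 ± 0.61 (limma adjusted p = 0.003579). At 24 h Lclat1 also held 119.0 and 121.0 tags in BALB, against 4.41 and 17.3 at basal, and 51.1 and 38.8 in SPRET, against 7.69 and 9.22.

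Among genes of alternative activation, the IL-4-induced programme of macrophages, 22 of 30 had a late site within 50 kb of a start, where 41.1% of all protein-coding genes did. All 30 had some 24 h STAT6 peak within 50 kb. Of the 21924 protein-coding genes 14980 did, and 9015 had a late site, so the 41.1% also counts genes without any such peak. Of the nearest late sites, 16 had an H3K27ac region. At 24 h limma called 3 higher and 0 lower, the fold rule 7 higher, and the median log2 change was 1.32. Over all late regions limma called 2.57% higher and 0.138% lower, the fold rule 8.68% higher, and the median was 0.01. Over all regions the called shares were 1.13%, 0.327% and 3.55%. These shares, and the 41.1% of genes, are also the background for the lists that follow. The alternative activation list was drawn up with this response known, so its direction is not independent evidence.

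Arg1 encodes arginase, which turns arginine into ornithine. Its nearest late site, chr10:24901977-24902212, lay 25390 bp from its start within a coding exon of Med23. H3K27ac tags were 2.71 and 4.28 at basal, 82.7 and 16.5 at 1 h, 96.3 and 55.4 at 6 h, and 33.95 and 39.4 at 24 h. Treated libraries all lay above basal, and 24 h was not the highest time. The log2 change at 24 h was 3.09 ± 0.67 (limma adjusted p = 0.02607). H3K4me2 at Arg1 was 2.45 and 3.52 tags at basal and 24.0 and 24.2 at 24 h.

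Batf3, an AP-1 family factor of dendritic and macrophage cells, had its late site 65 bp from its start, with 13.6 and 35.6 H3K27ac tags at basal and 140.1 and 139.8 at 24 h. The 24 h libraries lay above basal without overlap. The log2 change was 2.61 ± 0.61 (limma adjusted p = 0.03729), and Pol II rose by 1.81 (limma adjusted p = 0.03238). The site near the homeobox gene Msx3 rose by 3.85 (limma adjusted p = 0.004694), from 0 and 2.14 to 22.9 and 26.2 tags.

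Late sites sat on several promoters of this list. They lay 13 bp from the start of Egr2, 197 bp upstream of the chemokine gene Ccl17, 22 bp upstream of the chemokine gene Ccl22, 26 bp upstream of Irf4, which encodes an IL-4-induced interferon regulatory factor, 89 bp from the start of the kinase gene Matk and 44 bp upstream of Mmp12. Pol II rose at Egr2 from 169.7, 105.1, 68.1 and 123.5 tags at basal to 421.5, 409.6 and 319.4 at 24 h (log2 change 1.77, limma adjusted p = 0.02818). All 3 libraries lay above all 4 basal ones. Pol II also rose at Irf4 (1.53, limma adjusted p = 0.04002) and Matk (1.57, limma adjusted p = 0.03507). Away from promoters, it rose at intronic late sites of Flt1 (2.87, limma adjusted p = 0.02791) and Tmem26 (2.38, limma adjusted p = 0.04387). These lay 4392 and 35663 bp from the starts. Basal Pol II at the Flt1 site was low, at 0.62, 1.6, 0.54 and 2.03 tags. H3K27ac at Egr2 was 146.5 and 105.5 at basal and 222.4 and 143.7 at 24 h and did not pass the test (log2 change 0.52, limma adjusted p = 0.6882).

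In the IL-4 receptor and JAK-STAT list 14 of 17 genes had a late site within 50 kb. Socs1, which encodes an inhibitor of Janus kinases, was the 1 called, 2230 bp from its start, with H3K27ac of 4.07 and 2.14 tags at basal, 80.9 and 102 at 6 h, and 63.7 and 42.7 at 24 h. Its log2 change was 3.74 ± 0.56 (limma adjusted p = 0.002199), and the median over the 10 nearest sites with a region was 0.53. Il4ra, the IL-4 receptor chain, had 3 late sites, the nearest at -14817 bp from its start, with all 4 factors at 24 h.

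Of the PPARγ and lipid list 14 of 17 genes had a late site, with 9 regions, 0 calls by limma, 1 by the fold rule and a median of 0.30. The Pparg intron itself held one 4706 bp from a start, with EGR2, PPARγ and PU.1 peaks at 24 h. Of EGR and NAB genes, which encode the EGR factors and their co-repressors, 4 of 6 had one, and Egr1 was called higher, from 4.07 and 2.14 tags to 17.8 and 31.5 (log2 change 2.63, limma adjusted p = 0.03989). Lineage factors had one at 13 of 16 genes, with 9 regions, 0 calls and a median of 0.70.

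Other lists had late sites too. They lay near 11 of 18 inflammatory genes (median -0.34), 10 of 17 lysosome genes (-0.72), 10 of 15 growth and repair genes (-0.07) and 5 of 7 macrophage markers (-0.78), with 0 limma calls in each. Markers of other blood and stromal cells had one at 6 of 14 genes (median -0.71, 0 calls). No test was made between lists. As for the cells themselves, at gene starts with a region, H3K4me3 ran from 182 to 542 tags at 6 of 7 macrophage markers and from 7.42 to 286 at 5 of 14 markers of other cells at basal, and Pol II from 123 to 1090 and from 1.25 to 34.8.

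Pol II over all late regions followed H3K27ac on a smaller scale. limma called 45 higher and 4 lower at 24 h (0.776% and 0.069%), against 0.503% and 0.174% of all regions and 2.84% higher among early regions. The calls fell to 6 without replicate 1 of 24 h, and lay between 13 and 16 without replicate 2 of 24 h or replicate 2, 3 or 4 of basal, and they rose to 102 without basal replicate 1. H3K4me2, in 67742 regions of another table, was higher at 24 of 5079 late regions (0.473%) and lower at 1 (0.0197%), with 0.179% and 0.0576% of all regions and medians of -0.55 and -0.69. That fall in the medians is a shift of the whole table. Without replicate 2 of 24 h there were 0 H3K4me2 calls, without replicate 1 of basal 7, and without replicate 1 of 24 h 2183, nearly all lower. The 4 lower for Pol II were at Pilra, Nlrp3, Marcksl1 and Arrb2, and the 1 lower for H3K4me2 was again at Nlrp3, all named after their values were seen. At Nlrp3, the gene of an inflammasome sensor, the late site lay 1523 bp from the start. Pol II tags there were 157, 202, 234 and 142 at basal and 51.4, 20.5 and 32.1 at 24 h, a fall in every library (log2 change -2.44, limma adjusted p = 0.02116), and H3K4me2 went from 159 and 124 to 50.3 and 38.1 tags (-1.66, limma adjusted p = 0.03855). For H3K4me3 limma made 0 calls in either direction at late regions and 0.0% over the table in each. At an unadjusted p under 0.05 it had 1274 late regions (25.1%, with 19.5% of all regions), and edgeR called 39 and DESeq2 25.

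EGR2 tags were counted at 3028 EGR2 sites that overlap a late site, with 2 libraries a time. limma called 0 higher at 24 h against basal, as at 0.0% of all 30675 EGR2 sites, with 174 (5.75%) at an unadjusted p under 0.05 against 3.38% of all, 0 by edgeR and 2 by DESeq2. The median log2 change was 0.74 at late sites, 0.77 at early sites and 0.66 over all EGR2 sites. At early sites 10.6% had an unadjusted p under 0.05, and 20.4% were higher by the fold rule without overlap. At late sites the fold rule gave 467 (15.4%) higher without overlap, against 10.3% of all sites. The site near Mcf2l was among them, with 25.8 and 26.9 tags at basal, 12.6 and 27 at 1 h, 40.2 and 66.7 at 6 h, and 149.9 and 80.64 at 24 h.

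H3K27ac was also read in the 4 other strains, in separately normalised tables that were not tested against each other. limma called 177 late regions higher and 11 lower in BALB (3.43% and 0.213% of 5162, with 1.6% and 0.653% of its table), 2 and 0 in NOD (0.0331% of 6042, with 0.0566% and 0.0%), 27 and 0 in PWK (0.543% of 4976, with 0.487% and 0.0482%) and 65 and 4 in SPRET (1.8% and 0.111% of 3611, with 0.994% and 0.192%). The late share was near the table's in NOD and PWK. The 2 in NOD, named after their values were seen, were near Ankrd55, from 17.5 and 19.8 to 229 and 245.4 tags, and near Cblb, which encodes a ubiquitin ligase, from 24.9 and 13.5 to 270.5 and 261.2. The 4 lower in SPRET were near Angptl7, C5ar1, Eef2k and Gm49369, and the complement receptor gene C5ar1 went from 236 and 168 to 45.8 and 73.2 tags. Median log2 changes at late regions were 0 in BALB, 0.11 in NOD, 0.02 in PWK and 0.03 in SPRET, against -0.30, -0.20, -0.18 and -0.09 over each table. The counts rested on single libraries. Without replicate 1 of 24 h BALB gave 94 higher and 109 lower, without replicate 2 of 24 h it gave 92 calls and without replicate 1 of basal 71. NOD gave 0 calls without either 24 h library and 176 and 292 without replicate 1 and 2 of basal. PWK and SPRET gave 0 without either 24 h library, PWK 48 and 283 without replicate 1 and 2 of basal, and SPRET 7 and 24.

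The Arg1 site showed the same direction in 3 strains with a region. H3K27ac went from 2.94 and 4.77 to 51.2 and 39.5 tags in BALB, from 3.32 and 3.18 to 53.5 and 36.02 in NOD, and from 39.5 and 57.9 to 181.8 and 160.3 in PWK. At Pilra tags were lower at 24 h in all 4, in BALB from 85.2 and 95.3 to 15.1 and 12.4. No library of 24 h overlapped one of basal at Arg1 or at Pilra in any of these strains.

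The Egr2 genotypes gave STAT6 libraries that the choice of sites did not use. Their tables cover 4677 sites selected by the study as EGR2 peaks induced by IL-4 at 24 h in C57, so they hold the EGR2-bound fraction only, and 640 of these were late sites. The tables do not check the deletion. The window in an Egr2 intron, chr10:67538716-67539716, held 153 and 198 H3K27ac tags in Egr2 fl/fl and 161 and 143 in LyzM-Cre Egr2 fl/fl at 24 h, and 1 Pol II library each held 151 and 126. Which exons are removed is not given in the sources used here.

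In Egr2 fl/fl, STAT6 at the 640 late sites had a median of 3.09 and 1.2 tags at basal and 7.47 and 6.20 at 24 h. Both 24 h libraries lay above both basal libraries. The log2 change was positive at 95% of the late sites, with a median of 1.2. Over all 4677 sites it was positive at 90.4%, with a median of 1.04. At early sites it was positive at 98.4% (median 1.74), and at basal sites at 96.7% (median 1.09). A rise was thus general in this table and not particular to late sites. limma called 46 higher (7.19%) and 0 lower, against 11.8% and 0.0% of the table and 32.2% of early sites. Without either 24 h library this count was 0, without basal replicate 2 it was 2, and median-ratio scaling and DESeq2 also gave 0.

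In LyzM-Cre Egr2 fl/fl, the STAT6 medians were 2.23 and 1.84 at basal and 3.09 and 2.25 at 24 h. They lay under both 24 h libraries of Egr2 fl/fl and within the reach of its basal libraries. The median log2 difference at 24 h, LyzM-Cre Egr2 fl/fl against Egr2 fl/fl, was -1.08 at late sites, -1.06 at early sites and -0.79 over all sites. This difference was thus not particular to late sites. Single sites did not pass limma, with 0 late sites called lower against 0.0214% of the table, 148 (23.1%) at an unadjusted p under 0.05 against 15%, 5 by edgeR and 0 by DESeq2. At early sites 28.6% had an unadjusted p under 0.05. The fold rule gave 9 late sites lower (1.41%, with 3.61% of the table and 12.5% of early sites). The interaction of genotype and IL-4 called 0 in either direction, as in 0.0% and 0.0% of the table. At an unadjusted p under 0.05 it had 72 late sites (11.2%), against 8.19% of the table and 14.8% of early sites. edgeR and DESeq2 each called 0 late sites for it.

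H3K27ac differed more clearly between the genotypes. Its median at the 640 sites was 8.52 and 7.47 tags at basal and 19.1 and 21.2 at 24 h in Egr2 fl/fl, and 5.01 and 5.04 at basal and 6.23 and 7.25 at 24 h in LyzM-Cre Egr2 fl/fl. The 24 h libraries without Egr2 stayed under the basal libraries with it. limma called 243 late sites lower at 24 h in LyzM-Cre Egr2 fl/fl (38.0%) and 5 higher (0.781%), against 23.2% and 1.41% of the table. Early sites were called lower in 31.8% and higher in 0.813%. The 5 late sites called higher were near Kctd21, Rasgrp1, Cux1, Pdcd1lg2 and Otulin, named after their values were seen. The median difference was -1.02 at late sites, -0.60 at early sites and -0.50 over the table. The late-site count of both directions fell to 90 without replicate 2 and 100 without replicate 1 of Egr2 fl/fl at 24 h, to 136 without replicate 1 of LyzM-Cre Egr2 fl/fl, and to 141 and 81 under median-ratio scaling and DESeq2. STAT6 and H3K27ac were both lower at 527 of the 640 late sites (82.3%) and at 3061 of the 4677 sites of the table (65.4%).

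The other factors had the same order in their medians at these sites, given as values without a test. C/EBPβ was at 12.7 and 11.4 tags in Egr2 fl/fl at 24 h, 2.61 and 4.90 at basal, and 2.71 and 3.22 in LyzM-Cre Egr2 fl/fl at 24 h. PU.1 was at 15.4 and 16.1, 7.65 and 7.82, and 6.68 and 7.57. PPARγ was at 4.10 and 9.45, 0.91 and 0, and 1.39 and 0. H3K4me2 was at 26.9 and 31.6, 18 and 19.5, and 17.3 and 19.2.

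**Figure D5:**
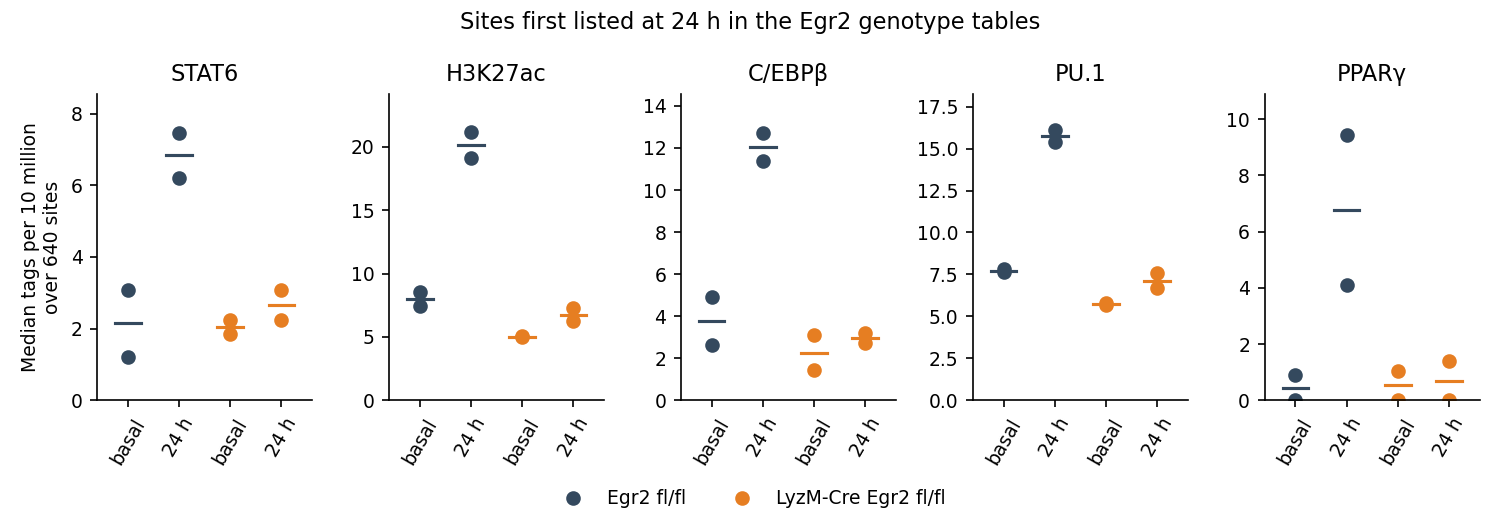
Median tags per 10000000 library tags over 640 late sites in each library (points; bars are group means) for 5 ChIP targets, in Egr2 fl/fl (dark) and LyzM-Cre Egr2 fl/fl (orange) at basal and 24 h of IL-4. For every target the Egr2 fl/fl 24 h libraries stand highest, as for STAT6 at 7.47 and 6.20 against 3.09 and 2.25.

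The largest STAT6 rise in Egr2 fl/fl was 45042 bp upstream of Plxnc1, which encodes a semaphorin receptor, at chr10:94989775-94989979. STAT6 tags were 0 and 0 at basal and 13.7 and 16.8 at 24 h, and in LyzM-Cre Egr2 fl/fl 3.34 and 0 at basal and 2.06 and 0 at 24 h. Only the Egr2 fl/fl 24 h libraries stood clear of the rest (limma adjusted p = 0.002974 for IL-4 in Egr2 fl/fl). A second Lclat1 site, 143133 bp from the start, at chr17:73250985-73251269, went from 0 and 0 to 9.96 and 11.5, and stood at 0 and 0 in LyzM-Cre Egr2 fl/fl at 24 h (limma adjusted p = 0.005323 for IL-4). The third of these sites, near Trim36, went from 0 and 3.59 to 26.1 and 23.9 tags in Egr2 fl/fl, and held 2.06 and 2.25 in LyzM-Cre Egr2 fl/fl at 24 h (limma adjusted p = 0.003832 for IL-4).

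The largest difference without Egr2 was in an Nt5dc3 intron, chr10:86830246-86830465, the site with the repeated EGR letters. STAT6 tags were 0 and 1.2 at basal and 19.9 and 11.5 at 24 h in Egr2 fl/fl, against 0 and 0 at 24 h in LyzM-Cre Egr2 fl/fl (limma adjusted p = 0.09250). H3K27ac there was 55.3 and 34.04 tags in Egr2 fl/fl and 3.12 and 4.06 in LyzM-Cre Egr2 fl/fl at 24 h, a log2 difference of -3.28 ± 0.58 (limma adjusted p = 0.0009853). STAT6 near Ranbp9 was at 13.7 and 19.5 tags against 1.03 and 0 (limma adjusted p = 0.09250), the same order without passing the test.

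Not all late sites followed this order. Near Pdcd1lg2, the gene of the checkpoint ligand PD-L2, the site carried a STAT match with 4 spaced bases. STAT6 tags at 24 h were 7.47 and 5.31 in Egr2 fl/fl and 11.3 and 5.63 in LyzM-Cre Egr2 fl/fl, and H3K27ac was 366.9 and 440.0 against 639.0 and 612.9. The STAT6 libraries of the genotypes overlapped and H3K27ac was higher without Egr2 in both. Chic2 kept the order of the genotypes at 24 h, with H3K27ac of 221.1 and 177.3 tags with Egr2 and 103.9 and 133.5 without. It differed in that both genotypes lay far above the basal 5.11 and 2.04.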

How the data were processed

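ChIP-seq of STAT6, EGR2, PPARγ, C/EBPβ, PU.1, Pol II and histone marks in mouse BMDMs was taken from deposited tables. Per the methods of the study and the labels, the authors aligned reads with Bowtie2 to each strain's genome, moved them to mm10, called peaks with HOMER in each replicate and kept those reproducible between replicates (IDR), giving 1 list a group. In these lists the authors deposited an IDR score, scaled to at most 1000, and a peak signal over the pooled replicates, whose normalization is not given in the sources used here. Region tables hold HOMER coverage signal, deposited per replicate as tags scaled to 10000000 per library by the authors. Whole reads were recovered from these for all values. ATAC-seq peak names of the time-course table served only to say whether a region was open. The 4 value columns that match no sample were not used.

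A late site is a 24 h peak that shared no base with an earlier C57 list. Sites were matched to regions centred within 500 bp, and to genotype sites within 150 bp. Shares carry exact binomial 95% intervals, which cover counting error only. Motifs were searched as exact letters on both strands in 200 bp of the RefSeq mm10 sequence, and genes are GENCODE. Tests were limma 3.58.1 (lmFit, eBayes with trend) on log2(tags + 1) over all regions of a table, adjusted by Benjamini-Hochberg at 0.05, in R 4.3.3. A fold on this scale understates the change of low regions. edgeR 4.0.16 and DESeq2 1.42.0 on recovered reads were alternatives. All 3 tools were tested on simulated data.

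Named sites were the 8 of highest score, the 8 largest rises and 4 largest falls of H3K27ac by the fold rule, the 4 of highest score with all 4 factors, the site nearest each alternative activation gene, and the 3 largest STAT6 changes with IL-4 and without Egr2. One of these sites is not reported here. The members, the gene lists and the tests were chosen with earlier results of these data known. No sequence is shown for mitochondrial or chromosome 18 sites, or for UTRs.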

Additional observations from a re-analysis of the deposited data

Results flagged for a closer look

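A single library stood apart from the other 3 in Pol II at basal at 2 late sites, by the gap to its nearest neighbour as a share of the whole range (above Dixon's 95% critical value for 4 libraries). Near Msx3 this share was 0.886, with 9.36, 0, 1.07 and 1.01 tags in basal replicates 1 to 4. Upstream of Ccl24 it was 1.0, with 0, 0.8, 0 and 0 tags at basal against 2.67, 1.82 and 0 at 24 h, so that a tag or so decided it. Of 40 groups of 4 libraries looked at, these were 2, and chance gives about 1 in 20. Of 44 named late sites with H3K27ac values in the other strains, 0 had libraries moving apart in opposite directions between strains.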

How the results depend on the processing

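The membership of the late sites depended on the lists. Shortening the 24 h list to the length of the longest earlier list left 4593 late sites, and its better-scoring 50% left 1261, while the basal list as the only earlier list, a choice made after seeing the data, gave 16282. Peaks with at least 50% covered (9705), no earlier centre within 500 bp (9014) or no 6 h list (10857) stayed within 1.5 times the 9358. With only the better-scoring 50% of each other list, 24 h EGR2, PPARγ, C/EBPβ and PU.1 overlapped 16.9%, 16%, 13.2% and 43.2% of late sites, and basal EGR2, PPARγ, C/EBPβ and PU.1 4.12%, 2.6%, 3.83% and 31.5%. The 24 h STAT6 lists of BALB, NOD, PWK and SPRET then held 1.47%, 2.82%, 13.5% and 9.96%, and their basal lists 0.716%, 1.78%, 1.4% and 5.68%. Among the better-scoring 50% of late sites, BALB held 13.9% and NOD 22.1% at 24 h. In windows of 100 bp, STAT matches with 4 and 3 spaced bases stood in 6.05% and 4.1% of late sites, EGR in 19.8%, KLF in 6.27%, C/EBP in 6.4% and DR1 in 0.0107%. A shorter list or window holds fewer matches by construction.

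Counts of called late regions or sites, in both directions together, often moved by over 1.5 times, and the cause was not tested. DESeq2 called 438 for H3K27ac at 24 h against basal, 508 at 6 h, and 268 at 1 h with 158 higher and 110 lower, which turned the direction. Median-ratio scaling turned it as well, with 142 calls at 1 h, and gave 9 for 24 h against 6 h. DESeq2 called 127 for Pol II, 41 for H3K4me2, 25 for H3K4me3 and 2 for EGR2. edgeR called 13 for H3K4me2 and 39 for H3K4me3, and median-ratio scaling gave 62 for H3K4me2, against 12 with a filter on low tags. A pseudocount of 5 gave 1 call for EGR2. The better-scoring 50% of late sites held 187 of the 6 h and 276 of the 1 h calls of H3K27ac. For STAT6 with IL-4 in Egr2 fl/fl a pseudocount of 5 gave 129 calls, and median-ratio scaling and DESeq2 gave 0. For STAT6 without Egr2 at 24 h a pseudocount of 5 gave 28 and edgeR 5. H3K27ac without Egr2 had 141 calls under median-ratio scaling and 81 under DESeq2. In BALB a filter on low tags gave 116. In NOD a pseudocount of 5 gave 6, the filter 7, median-ratio scaling 0, edgeR 7 and DESeq2 134. In PWK median-ratio scaling gave 2, edgeR 53 and DESeq2 58, and in SPRET median-ratio scaling gave 38 and edgeR 119.

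Leaving out each replicate in turn gave 37 to 116 calls for H3K27ac at 24 h, 24 to 315 at 6 h, 28 to 1431 at 1 h and 4 to 16 for 24 h against 6 h. It gave 6 to 102 for Pol II and 0 to 2183 for H3K4me2. It gave 0 to 59 for STAT6 with IL-4 in Egr2 fl/fl and 90 to 205 for H3K27ac without Egr2. In the strains it gave 71 to 203 in BALB, 0 to 292 in NOD, 0 to 283 in PWK and 0 to 24 in SPRET. The direction turned without replicate 2 of 6 h for H3K27ac at 6 h (24 calls), without replicate 1 of 24 h for H3K4me2 (2183 calls) and without replicate 1 of 24 h in BALB (203 calls). H3K4me3, EGR2, STAT6 without Egr2 and the interaction stayed at 0 without any one replicate. Where a group was left with 1 library, that library was assumed to vary like the other groups.

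Replicate numbers are shared between groups in the labels, which do not say what they mark. Same-numbered libraries deviated together with correlations of -0.0728 to 0.492, and no comparison met the rule for pairing. With the replicate number as a block limma called 632, 812 and 1364 for H3K27ac at 24, 6 and 1 h, 63 for 24 h against 6 h, 144 for Pol II, 73 for H3K4me2, 997 for H3K4me3 and 1 for EGR2. It called 141 for STAT6 with IL-4 in Egr2 fl/fl, 31 without Egr2, 2 for the interaction and 291 for H3K27ac without Egr2. In BALB, NOD, PWK and SPRET the block gave 542, 1210, 577 and 324.

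In all, 132 alternative values stayed within 1.5 times of the value in the text, 109 moved by more and 5 turned direction.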
